A study of Mus musculus with 6 samples.

Results

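Autophagy delivers cytoplasm to lysosomes, and 43 mouse genes of its machinery and of the lysosome were compared between muscle cultures from Sfpq knockout mice and control cultures. Sfpq is a nuclear RNA-binding protein, and the title of the series links its loss in muscle to long genes and to a metabolic myopathy. The genes were chosen by name: the initiation complex, the lipid kinase complex, the expansion machinery, the conjugation enzymes, the ATG8 proteins, the cargo receptors, and the lysosomal membrane proteins and proteases with the regulator Tfeb. Of the 43, 42 were matched by symbol to a RefSeq accession in the values, among 34655 genes in all, and Atg13 was not analysed here.

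Primary myoblasts of SfpqSM-KO mice (n = 3 libraries) and of control mice (n = 3 libraries), all 1-month-old males, were grown from skeletal muscle. They were expanded with 20% fetal bovine serum and bFGF, a growth factor, at 2.5 ng/mL, and then differentiated in 2% horse serum, in which myoblasts fuse into myotubes, over 4 days. PolyA RNA was sequenced, and each gene has a TPM value per library, which is transcripts per 1000000 transcripts and is scaled by transcript length. The sources used here do not give the promoter that drives the deletion, the alleles of the control mice or the mouse behind each library. The p-values therefore measure only the spread between these libraries, which may be technical. Sfpq itself stood at 14.1 to 19.3 TPM in the knockout libraries and at 48.6 to 60.5 TPM in the control libraries, so transcripts remained in the knockout cultures.

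In macroautophagy the ULK kinase complex starts a membrane cup, the phagophore, and the Vps34 lipid kinase complex marks it with a phosphoinositide. Conjugation enzymes then attach ATG8 proteins of the LC3 and GABARAP families to its lipid. Receptors tie cargo such as ubiquitinated proteins or mitochondria to these ATG8 proteins, and the closed autophagosome fuses with a lysosome, where cathepsins digest the content. Muscle depends on this turnover: in humans, loss of LAMP2 causes Danon disease, a myopathy with autophagic vacuoles.

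Most of the machinery differed little between the genotypes beside the spread of the libraries, and the smallest p belonged to Lamp2, at a lower level in the knockout libraries. The genotypes were compared on log2(TPM + 1) with limma over 12460 genes with at least 1 TPM in at least 3 libraries, with Benjamini-Hochberg adjustment. All 42 genes entered the test, and the lowest of their values in any library was 5.26 TPM. None passed an adjusted p of 0.05, and neither did any other gene (0.0% in each direction). Sfpq itself had a log2 difference of −1.57 and an adjusted p of 0.0529 in limma, so even the targeted gene missed this threshold. At an unadjusted p under 0.05, 1199 genes were lower and 334 higher in knockout. At that unadjusted threshold 3 of the 42 were lower, which is 7.14% against 9.62% of all tested genes, and 1 was higher, which is 2.38% against 2.68%. Both shares lay near the background. The 3 lower ones were Lamp2, Rb1cc1 and Atg4d, and the higher one was Atg12. After median-of-ratios scaling the unadjusted calls over all genes were 657 lower (5.28%) and 787 higher (6.32%). Among the 42 they were 1 lower (2.38%, Lamp2) and 4 higher (9.52%, Atg12, Atg101, Gabarapl2 and Lamp1).

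The median log2 difference of the 42 genes was −0.10 (knockout minus control), beside −0.07 for all tested genes. For 29 of them the difference was below 0, which is 69.0% against 64.5% of all genes. It was smaller than 0.2 in size for 27 of the 42, where 64.4% of all tested genes were. It was 0.4 or larger only for Lamp2 and Bnip3, where 12.2% of all tested genes were. The count of lower genes depended on single libraries. It became 9 of 42 (21.4%) without control replicate 2, where 10.3% of all tested genes were lower, and 5 (11.9%) without Sfpq knockout replicate 2, where 9.99% were. Lamp2 was among them with each library left out. The unadjusted p of Atg12 was above 0.05 with any one library left out other than Sfpq knockout replicate 1. Over all tested genes the libraries did not group by genotype alone. Control replicate 2 correlated most with Sfpq knockout replicate 1 (0.984), and Sfpq knockout replicate 2 most with control replicate 3 (0.9859). Sfpq knockout replicates 1 and 3 correlated most with each other (0.9866), as did control replicates 1 and 3 (0.9865).

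**Figure D1:**
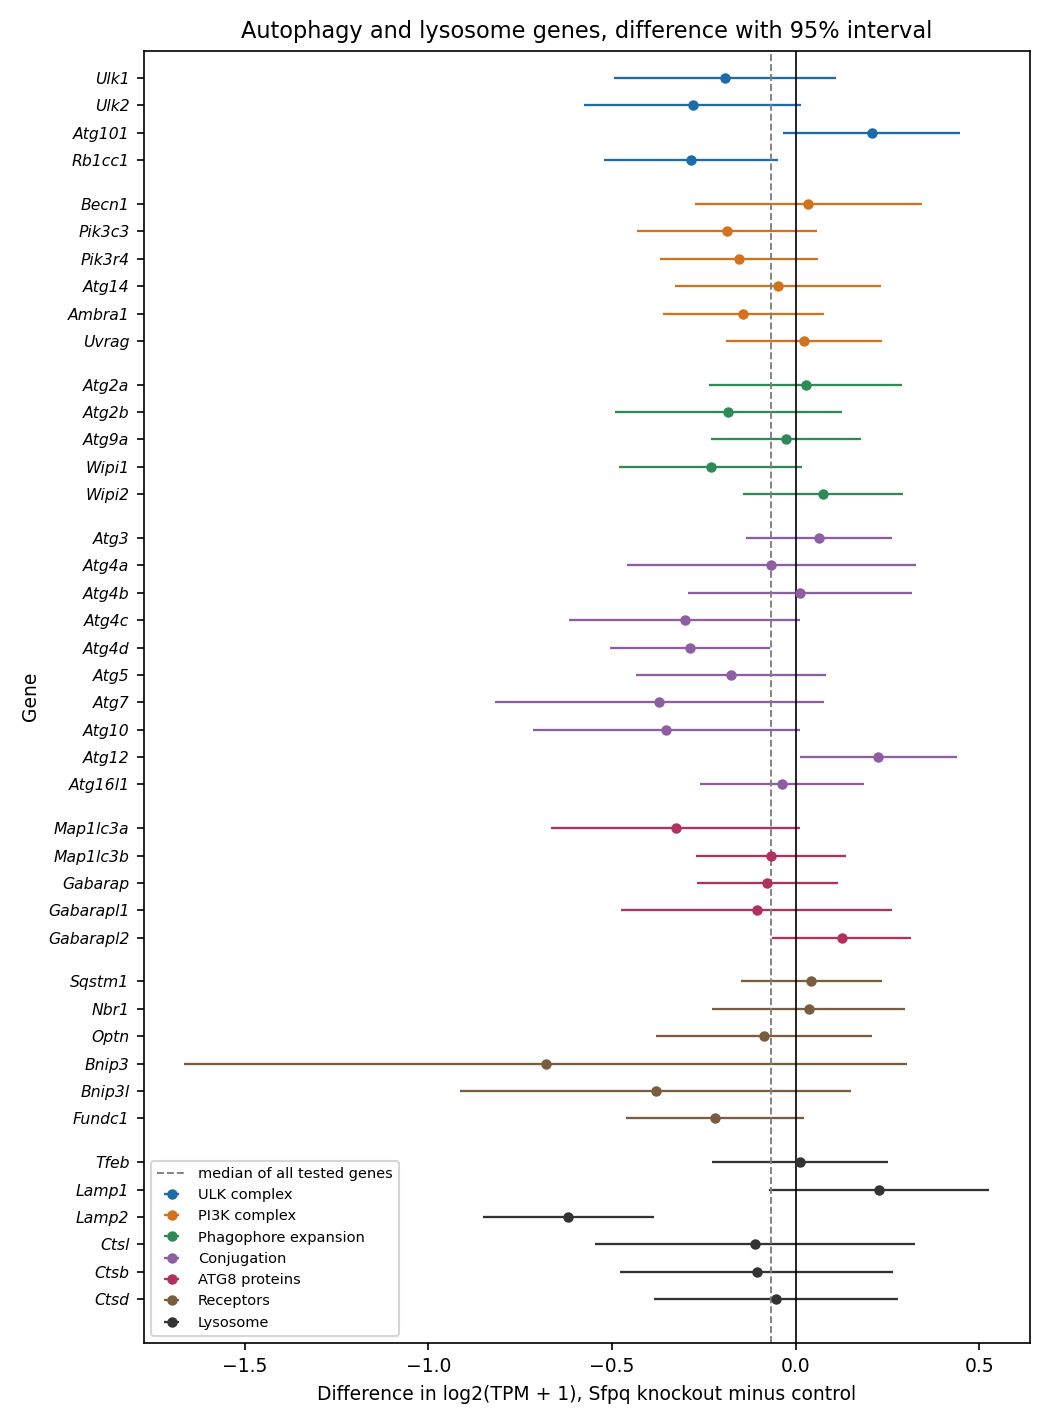
Difference in log2(TPM + 1) between 3 Sfpq knockout and 3 control libraries for each of 42 genes, with the 95% interval of the limma fit as a bar. Intervals that leave out 0 are those of Lamp2, Rb1cc1 and Atg4d on the lower side and Atg12 on the higher side, and the interval of Bnip3 is the widest.

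Levels spanned a wide range within the pathway. Over all 6 libraries 9 genes averaged 100 TPM or more, led by the aspartyl protease cathepsin D (Ctsd), the LC3 gene Map1lc3a, the receptor p62 (Sqstm1) and the lysosomal membrane glycoprotein Lamp1. At the other end 11 averaged below 20 TPM, the lowest being the protease Atg4c, the Vps34 cofactor Atg14 and the enzymes Atg7 and Atg10. Together the 42 genes held 0.529% to 0.623% of all TPM in a library.

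The cultures carried muscle transcripts at high levels and few of other cell types. The summed TPM of 8 myotube markers was 54609 to 56396 in knockout and 47599 to 49211 in control. The sum is mostly Acta1, skeletal actin, at 30842 ± 3210 TPM in knockout against 24426 ± 1456 TPM in control. Acta1 and Des were the only ones of the 8 whose groups did not overlap, Ckm, Tnnt3 and Ttn had differences below 0, and none had an unadjusted p under 0.05 in limma. The 3 myoblast markers summed to 597.2 to 648.0 TPM in knockout and 328.7 to 671.5 TPM in control, mostly Myod1. Myf5 and Pax7 had lower means in knockout, and their groups overlapped. Myf5 had a log2 difference of −0.68 and an unadjusted p under 0.05 in limma, with Sfpq knockout replicate 2 (36.0 TPM) within the control range. The log2 difference of Pax7 was −0.38. Of 10 markers of macrophages and other immune cells, which are rich in cathepsins, none reached the filter, their sum was 1.5 to 2.4 TPM in knockout and 1.7 to 2.4 TPM in control, and Ptprc, Adgre1, C1qa, C1qb and Tyrobp were listed at 0 in each library. The 7 fibroblast markers summed to 155.3 to 217.3 TPM in knockout and 196.6 to 295.8 TPM in control, mostly Col3a1, with Lum at or near 0. Col1a1, a collagen gene, was at 11.1, 24.9 and 11.6 TPM in knockout against 30.3, 35.9 and 75.9 TPM in control, without overlap (log2 difference −1.50, adjusted p = 0.271 in limma). The 5 proliferation markers summed to 5.7 to 17.0 TPM in knockout and 16.7 to 22.4 TPM in control, and none exceeded 6.5 TPM in any library. Of these, 3 (60.0%, Mki67, Ccnb1 and Plk1) were lower at an unadjusted p under 0.05 in limma, against 9.62% of all tested genes. The groups overlapped for Top2a and Cdk1. Adipocyte markers summed to at most 0.2 TPM, Schwann cell markers to at most 1.5 TPM, endothelial markers to at most 2.6 TPM and mural cell markers to at most 5.3 TPM. The part of the myotube, myoblast, fibroblast and proliferation markers in the differences below was not tested, and in bulk RNA fewer cells of a type and less RNA per cell cannot be told apart.

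The lysosomal membrane proteins Lamp1 and Lamp2 are major glycoproteins of that membrane, and their differences had opposite signs. Lamp2 (chromosome X, 38399647 to 38456460 in GRCm38) was at 56.4, 56.3 and 54.4 TPM in the knockout libraries, against 76.0, 91.0 and 92.2 TPM in the control libraries. Each knockout library lay below each control library, and the 3 knockout values were close together. The means were 55.7 ± 1.12 TPM in knockout and 86.4 ± 9.03 TPM in control (SD, n = 3 each, as for all means below), and the log2 difference was −0.62 (SE 0.10, adjusted p = 0.108 in limma). Under 15 alternative settings its log2 difference ran from −0.71 to −0.54, its unadjusted p stayed under 0.05 in 15 of 15, and its adjusted p ran from 0.108 to 0.458. One accession stands for the gene in these values, so its splice forms, which differ in their tail and in their role in chaperone-mediated autophagy, are not told apart here.

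Lamp1 (chromosome 8, 13159161 to 13175338) was at 505, 440 and 485 TPM in the knockout libraries, against 352, 471 and 405 TPM in the control libraries. The groups overlapped through control replicate 2, and the log2 difference was 0.23 (SE 0.13, adjusted p = 0.503 in limma). The ratio of Lamp1 to Lamp2 within a library does not depend on scaling. It was 8.96, 7.81 and 8.92 in the knockout libraries, against 4.63, 5.18 and 4.40 in the control libraries, which do not overlap. An exact 2-sided permutation test of this ratio gave p = 0.1, the smallest that 3 against 3 libraries allow. Values that do not overlap always give this p, and the pair was chosen after its values were seen, so the test adds no support. With each library left out in turn, the difference of the mean ratios, 3.83 over all libraries, ran from 3.63 to 4.21.

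Tfeb binds the E-box CACGTG within the CLEAR elements of lysosomal genes. The start regions of Lamp2, Lamp1 and Ctsd are shown as those of the lysosomal genes described most fully here, and that of the mitophagy receptor Bnip3 as the one with the lowest log2 difference. Each is the 250 bases before the RefSeq start in GRCm38.p6, printed 5′ to 3′ on the gene's strand, with each CACGTG, which reads the same on both strands, in capitals. Lamp2 lies on the minus strand (chrX:38456461-38456710), Lamp1 on the plus strand (chr8:13158911-13159160), and Ctsd (chr7:142387828-142388077) and Bnip3 (chr7:138909507-138909756) on the minus strand.
Lamp2: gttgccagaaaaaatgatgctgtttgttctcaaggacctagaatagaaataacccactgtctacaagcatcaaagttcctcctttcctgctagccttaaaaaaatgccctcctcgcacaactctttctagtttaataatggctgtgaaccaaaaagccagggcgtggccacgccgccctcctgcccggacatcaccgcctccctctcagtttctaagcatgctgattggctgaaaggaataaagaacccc
Lamp1: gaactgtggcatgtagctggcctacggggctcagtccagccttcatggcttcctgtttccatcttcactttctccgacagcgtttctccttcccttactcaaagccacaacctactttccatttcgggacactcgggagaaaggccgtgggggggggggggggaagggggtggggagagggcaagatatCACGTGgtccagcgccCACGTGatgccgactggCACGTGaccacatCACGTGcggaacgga
Ctsd: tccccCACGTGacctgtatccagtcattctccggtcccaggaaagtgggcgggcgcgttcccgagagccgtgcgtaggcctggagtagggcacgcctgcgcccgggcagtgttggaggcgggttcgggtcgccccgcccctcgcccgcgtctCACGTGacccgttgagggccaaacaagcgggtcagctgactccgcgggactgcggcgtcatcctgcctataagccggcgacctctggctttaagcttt
Bnip3: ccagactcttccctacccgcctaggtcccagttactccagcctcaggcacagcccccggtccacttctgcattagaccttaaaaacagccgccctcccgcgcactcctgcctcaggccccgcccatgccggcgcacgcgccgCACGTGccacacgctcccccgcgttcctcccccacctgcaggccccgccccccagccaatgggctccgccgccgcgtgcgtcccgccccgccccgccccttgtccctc

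Lamp1 has 4 copies of the motif, which begin 61, 45, 28 and 15 bases before the start, Ctsd has 2, at 245 and 98 bases, Bnip3 has 1, at 108 bases, and the window of Lamp2 holds 0. Of the 42 genes, 34 had such a sequence, and 7 of these (20.6%) held CACGTG, against 6.86% of 27025 genes in the table and 10.2% of the tested genes with an entry. The other 4 were Ctsl, Atg3, Atg5 and Atg7. The 7 genes with the motif did not share a direction: their log2 differences ran from −0.68 for Bnip3 to 0.23 for Lamp1. Those of Bnip3, Atg7, Atg5, Ctsl and Ctsd were below 0, and those of Atg3 and Lamp1 were above. Of all tested genes 64.5% were below 0. Rb1cc1, Becn1, Pik3c3, Atg12, Atg16l1, Map1lc3a, Bnip3l and Ctsb had no entry.

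Tfeb, the transcription factor of lysosomal genes, was at 82.2, 66.7 and 70.3 TPM in knockout and at 69.7, 75.9 and 70.9 TPM in control. The groups overlapped, and the log2 difference was 0.01 (SE 0.10). Ctsd, the most abundant of the 42, was at 1446, 1390 and 1253 TPM in knockout and at 1205, 1417 and 1647 TPM in control. Its control libraries spanned a wider range than its knockout libraries and enclosed them (log2 difference −0.05, SE 0.14). The cysteine proteases Ctsl, at 90.0 ± 10.2 TPM in knockout against 98.6 ± 22.0 TPM in control, and Ctsb, at 147 ± 32.3 TPM in knockout against 156 ± 4.87 TPM in control, also overlapped between the genotypes.

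**Figure D2:**
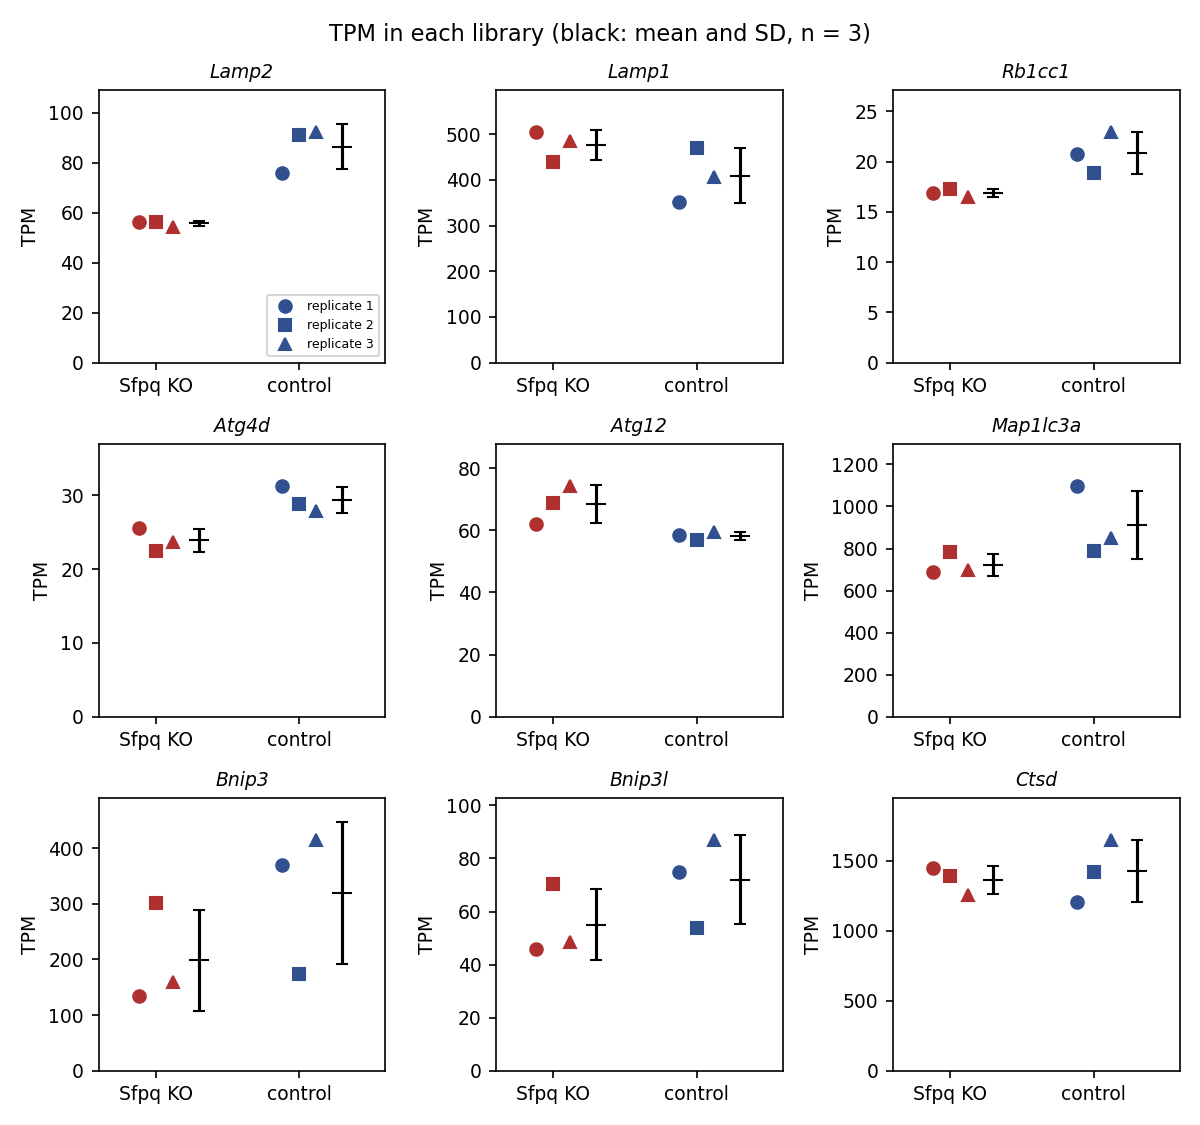
TPM of 9 genes in each of 3 Sfpq knockout (left, red) and 3 control (right, blue) libraries, with marker shape for the replicate number and the mean and SD in black. Lamp2, Rb1cc1, Atg4d and Map1lc3a had each knockout library below each control library and Atg12 the reverse, while Lamp1, Bnip3, Bnip3l and Ctsd overlapped.

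Among the initiation genes the scaffold Rb1cc1 (FIP200; chromosome 1, 6214634 to 6276375) was lower in knockout. It was at 16.9, 17.3 and 16.5 TPM in the knockout libraries, against 20.8, 18.9 and 22.9 TPM in the control libraries. The groups did not overlap, and the log2 difference was −0.29 (SE 0.10, adjusted p = 0.343 in limma), with −0.35 to −0.20 over the alternative settings and an unadjusted p under 0.05 in 8 of 15. The kinase Ulk1 was at 74.0, 83.3 and 72.8 TPM in knockout and at 80.5, 80.0 and 104 TPM in control, and its groups overlapped. Its relative Ulk2 was at 22.5 ± 2.54 TPM in knockout, against 27.6 ± 3.19 TPM in the control libraries (log2 difference −0.28, SE 0.12, adjusted p = 0.422 in limma). Atg101, which partners Atg13 in this complex, differed the other way, at 69.5, 73.7 and 83.0 TPM in knockout against 67.6, 59.5 and 68.3 TPM in control. Its groups did not overlap (log2 difference 0.21, SE 0.10, adjusted p = 0.457 in limma).

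The Vps34 lipid kinase complex showed small differences only. Becn1, its core subunit beclin 1, was at 79.6, 109 and 84.1 TPM in knockout and at 84.4, 93.9 and 85.3 TPM in control, with overlap. The catalytic subunit Pik3c3 was at 17.3 ± 1.85 TPM in knockout against 19.8 ± 0.19 TPM in control and the regulatory kinase Pik3r4 at 15.1 ± 0.41 TPM in knockout against 16.9 ± 1.01 TPM in control. In both the knockout libraries lay below the control libraries, with log2 differences of −0.19 and −0.15 and adjusted p of 0.501 and 0.522 in limma. Atg14, which targets the complex to the phagophore, was at 8.17 ± 0.43 TPM in knockout against 8.52 ± 1.03 TPM in control. Uvrag, which takes the place of Atg14 in another form of the complex, was at 18.8 TPM in each of the 3 knockout libraries and at 18.5 ± 1.26 TPM in control. Ambra1, a regulator of beclin 1, was at 22.4 ± 1.34 TPM in knockout against 24.8 ± 1.5 TPM in control.

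In phagophore expansion no gene had an unadjusted p under 0.05 in limma. Wipi1, a phosphoinositide-binding protein and the most abundant of this group, was at 180, 194 and 171 TPM in knockout and at 228, 189 and 226 TPM in control. Only control replicate 2 lay within the knockout range (log2 difference −0.23, SE 0.10, adjusted p = 0.430 in limma). Its relative Wipi2, which recruits the Atg16l1 complex, was at 43.4 ± 3.11 TPM in knockout against 41.2 ± 2.5 TPM in control. The lipid transfer proteins Atg2a and Atg2b were at 25.5 ± 2.23 TPM in knockout against 25.0 ± 2.49 TPM in control and at 11.8 ± 1.95 TPM in knockout against 13.5 ± 0.38 TPM in control. The scramblase Atg9a was at 98.2 ± 4.26 TPM in knockout against 100.1 ± 7.10 TPM in control.

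The conjugation genes differed in both directions. Atg12, the ubiquitin-like protein that is joined to Atg5, was at 62.0, 68.8 and 74.2 TPM in knockout against 58.3, 56.9 and 59.3 TPM in control. Each knockout library was above each control library, and the log2 difference was 0.23 (SE 0.09, adjusted p = 0.387 in limma). Its acceptor Atg5 was at 16.2, 17.3 and 20.2 TPM in knockout against 20.9, 19.2 and 20.7 TPM in control, which overlapped. The ratio of Atg12 to Atg5 was 3.84, 3.97 and 3.67 in the knockout libraries, against 2.79, 2.97 and 2.86 in the control libraries. These values do not overlap, which fixes the exact 2-sided permutation p at 0.1, the smallest possible. This pair too was chosen after its values were seen, so the test adds no support. The ratio of Bnip3 to Bnip3l, tested in the same way, overlapped. It was 3.49 ± 0.717 in knockout against 4.31 ± 0.943 in control (exact 2-sided permutation p = 0.3).

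Atg4d, one of the cysteine proteases that process ATG8 proteins, was at 25.6, 22.5 and 23.7 TPM in knockout against 31.3, 28.9 and 27.9 TPM in control. The groups did not overlap, with a log2 difference of −0.29 (SE 0.09, adjusted p = 0.320 in limma). The Kri1 gene overlaps its span on the opposite strand, and the sources used here do not say whether the counting used strand. Of the other proteases, Atg4c was at 5.74 ± 0.55 TPM in knockout against 7.33 ± 1.02 TPM in control without overlap (log2 difference −0.30, SE 0.13, adjusted p = 0.419 in limma). Atg4a, at 50.03 ± 5.08 TPM in knockout against 53.0 ± 11.6 TPM in control, and Atg4b, at 35.9 ± 3.54 TPM in knockout against 35.7 ± 4.92 TPM in control, overlapped. The activating enzyme Atg7 was at 8.21 ± 1.66 TPM in knockout against 10.9 ± 2.15 TPM in control and the E2-like enzyme Atg10 at 9.35 ± 1.74 TPM in knockout against 12.1 ± 1.33 TPM in control, both with overlap. Their log2 differences, −0.37 (SE 0.19) and −0.35 (SE 0.15), were the lowest among these enzymes. Atg3, the E2-like enzyme for ATG8 proteins, was at 24.4 ± 1.16 TPM in knockout against 23.2 ± 0.76 TPM in control, and the scaffold Atg16l1 at 48.0 ± 3.49 TPM in knockout against 49.2 ± 3.48 TPM in control.

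The ATG8 family was carried mostly by Map1lc3a, an LC3 gene, which held 52.6% to 57.1% of the family's TPM in knockout and 55.7% to 63.7% in control. Map1lc3a was at 687, 781 and 696 TPM in the knockout libraries, against 1097, 790 and 851 TPM in the control libraries. The groups did not overlap, but Sfpq knockout replicate 2 and control replicate 2 lay close together (log2 difference −0.33, SE 0.14, adjusted p = 0.418 in limma). Map1lc3b, whose protein is the usual marker of autophagosomes, was at 248 ± 15.2 TPM in knockout against 260 ± 13.4 TPM in control, and Gabarap at 225 ± 9.54 TPM in knockout against 238 ± 12.3 TPM in control. Gabarapl1 was at 51.4 ± 5.80 TPM in knockout against 55.9 ± 11.2 TPM in control. Gabarapl2 was the one family member with each knockout library above each control library, at 84.2 ± 2.69 TPM in knockout, against 77.1 ± 4.34 TPM in the control libraries (log2 difference 0.13, adjusted p = 0.555 in limma).

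**Figure D3:**
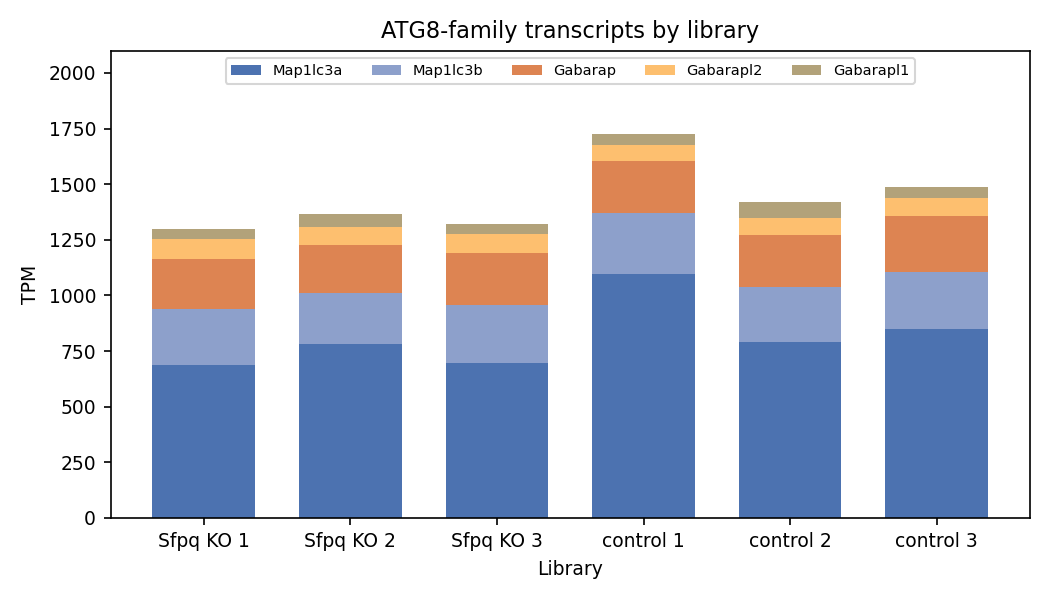
Summed TPM of the 5 ATG8-family genes in each library, with the 3 Sfpq knockout libraries on the left and the 3 control libraries on the right and each gene as a segment of the bar. The bars reach 1300 to 1368 TPM in knockout and 1418 to 1724 TPM in control, and Map1lc3a is the largest segment in all 6.

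Receptors for protein cargo were near equal. Sqstm1, which carries ubiquitinated proteins and whose protein is itself consumed by autophagy, was at 558, 550 and 532 TPM in knockout and at 535, 551 and 507 TPM in control (log2 difference 0.04, SE 0.08). Its 95% interval, −0.15 to 0.23, was among the narrowest of the set. Nbr1, a related receptor, was at 94.3 ± 11.7 TPM in knockout against 91.7 ± 5.89 TPM in control and Optn, optineurin, at 23.1 ± 3.13 TPM in knockout against 24.5 ± 2.11 TPM in control.

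Among receptors for mitochondria, Bnip3 and Bnip3l varied widely between libraries of the same genotype. Bnip3, an outer mitochondrial membrane protein, was at 134, 302 and 160 TPM in the knockout libraries and at 370, 174 and 414 TPM in the control libraries. Sfpq knockout replicate 2 was high within its group and control replicate 2 was low within its group, so the groups overlapped. The log2 difference was −0.68 with a 95% interval of −1.67 to 0.30 (SE 0.41, adjusted p = 0.542 in limma). Its relative Bnip3l (Nix) had the same high and low libraries, at 46.0, 70.3 and 48.6 TPM in knockout and at 75.0, 53.9 and 87.0 TPM in control (log2 difference −0.38, SE 0.22). With a library left out the log2 difference of Bnip3 ran from −1.07, without control replicate 2, to −0.44, without Sfpq knockout replicate 1. For Bnip3, 4 other genes have transcripts at least 95% identical over 30% or more of its length. Fundc1, another receptor of the outer membrane, was at 9.88 ± 0.67 TPM in knockout against 11.7 ± 0.74 TPM in control, and the groups did not overlap (log2 difference −0.22, SE 0.10, adjusted p = 0.439 in limma).

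Counted over the whole set, 8 of 42 genes (19.0%) had each knockout library below each control library, against 15.3% of all tested genes, and 3 (7.14%) the reverse, against 4.27%. The 8 were Rb1cc1, Pik3c3, Pik3r4, Atg4c, Atg4d, Map1lc3a, Fundc1 and Lamp2, and the 3 were Atg101, Atg12 and Gabarapl2. Both shares were a little above the background. On the opposite strand 9 of the 42 genes overlap a protein-coding gene (Becn1, Atg2b, Atg9a, Atg4b, Atg4d, Map1lc3b, Sqstm1, Lamp1 and Ctsb). On the same strand 2 do, Map1lc3b (with Gm20388) and Ctsd (with Gm49369). Reads of such pairs may not be separable. Near-identical transcripts of another gene were found for Atg4a (Atg4a-ps) as well as for Bnip3.

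Genomic span, which the choice of genes did not use, varied from 1.71 kb for Map1lc3a to 289 kb for Atg10. The 6 genes of 100 kb or more, Ambra1, Uvrag, Atg4a, Atg4c, Atg7 and Atg10, had a median difference on the log2 scale of −0.22, where all 1415 tested genes of that span had −0.14. The 8 genes of 50 to under 100 kb, Lamp2 and Rb1cc1 among them, had a median of −0.20 against −0.10 for 1641 genes, and the 28 under 50 kb had −0.05 against −0.05 for 8899 genes. Of the 6 longest, 5 were below 0, beside 72.4% of all genes of that span, and of the 28 shortest 17 were, beside 61.8%. None of the 6 longest had an unadjusted p under 0.05, where 20.5% of all genes of that span were lower at that threshold. Uvrag, at 254 kb, was near equal between the genotypes, and Lamp2 and Bnip3, with the lowest differences, span 56.8 and 18.7 kb.

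**Figure D4:**
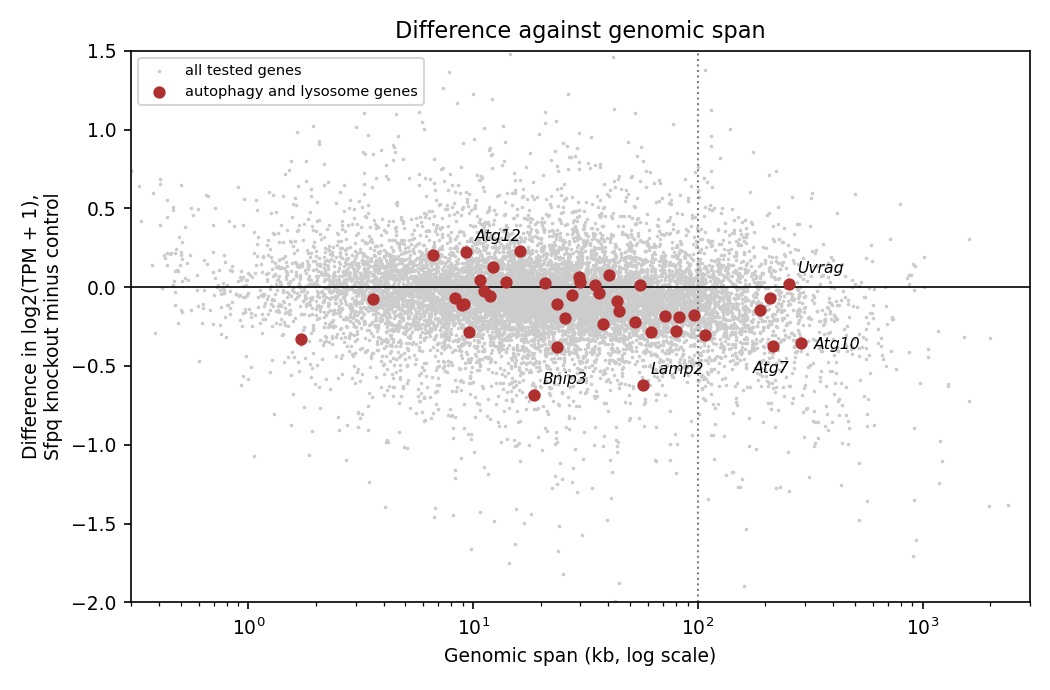
Difference in log2(TPM + 1), Sfpq knockout minus control, against genomic span in kb on a log axis, with the 42 genes in red and 11955 tested genes with a span in grey, of which 42 lie outside the axes. The dotted line marks 100 kb, and 5 of the 6 red points to its right lie below 0, with Uvrag just above it.

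The other genes of autophagy and lysosomes, counted over all lists, had shares below those of all tested genes, though the hydrolases alone had a larger share of lower genes. In 6 further lists 144 of 147 genes were tested, 8 were lower and 1 higher at an unadjusted p under 0.05, which is 5.56% against 9.62% and 0.694% against 2.68% of all tested genes, and none passed the adjusted threshold. Their median log2 difference was −0.07, that of all tested genes. Among the other receptor genes Pink1, a kinase of damaged mitochondria, had 414 ± 43.9 TPM in knockout libraries and 414 ± 21.9 TPM in control libraries. Phb2, a mitochondrial inner membrane receptor, at 257 ± 27.4 TPM in knockout against 299 ± 31.7 TPM in control, and Rtn3, a receptor of the endoplasmic reticulum, at 24.6 ± 0.66 TPM in knockout against 28.1 ± 3.66 TPM in control, had an unadjusted p above 0.05 in limma. Pink1 was picked after its values were seen.

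Of the other autophagosome genes 1 of 16 (6.25%, against 9.62% of all tested genes) was lower at an unadjusted p under 0.05 in limma, the small GTPase Rab1a (82.1 ± 3.00 TPM in knockout against 95.7 ± 3.46 TPM in control, adjusted p = 0.338). Next to it were Wdr45, at 48.6 ± 1.51 TPM in knockout against 53.7 ± 2.00 TPM in control, and Tmem41b, at 16.4 ± 3.05 TPM in knockout against 19.7 ± 1.29 TPM in control. Of the genes for fusion with the lysosome 1 of 16 (6.25%) was also lower, Rilp, a Rab7 effector (26.3 ± 1.08 TPM in knockout against 39.1 ± 11.1 TPM in control, adjusted p = 0.389 in limma), whose control replicate 2 lay within the knockout range. The tethering subunit Vps39 was at 23.9 ± 2.69 TPM in knockout against 28.2 ± 1.02 TPM in control and the tether Epg5 at 8.72 ± 0.44 TPM in knockout against 10.2 ± 0.84 TPM in control.

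Lysosomal hydrolases gave 5 lower and 1 higher of 38 tested at that threshold. The shares are 13.2%, above the 9.62% of all tested genes, and 2.63%, beside 2.68%. Gusb, beta-glucuronidase, was at 30.1 ± 3.19 TPM in knockout against 40.1 ± 3.85 TPM in control and the carboxypeptidase Scpep1 at 29.4 ± 4.38 TPM in knockout against 40.0 ± 4.76 TPM in control, with adjusted p of 0.277 and 0.328 in limma. The higher one was Hexa, a hexosaminidase subunit, at 188 ± 9.47 TPM in knockout against 155 ± 14.2 TPM in control (adjusted p = 0.334 in limma). The protease Ctso and the fucosidase Fuca1 were also lower, at adjusted p of 0.343 to 0.403 in limma. The cathepsin genes Ctss and Ctsk were not tested, the first listed at 0 in each library.

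Genes of the lysosomal membrane and proton pump (29 tested) and of the mTORC1, Tfe and FoxO regulators (30 tested) gave 0 in either direction at an unadjusted p under 0.05 in limma. Their medians were −0.05 and −0.08. The nearest in the first were Atp6v1b2, a pump subunit, at 62.1 ± 2.89 TPM in knockout against 69.0 ± 2.43 TPM in control, Tmem192, at 20.2 ± 1.93 TPM in knockout against 23.3 ± 2.82 TPM in control, and the cholesterol exporter Npc1, at 23.4 ± 3.89 TPM in knockout against 27.2 ± 3.32 TPM in control. In the second they were the stress protein Sesn2, at 13.6 ± 2.44 TPM in knockout against 16.9 ± 1.67 TPM in control, Lamtor3, at 58.6 ± 2.34 TPM in knockout against 65.2 ± 1.63 TPM in control, and Fnip1, at 10.4 ± 0.50 TPM in knockout against 12.1 ± 0.73 TPM in control.

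**Figure D5:**
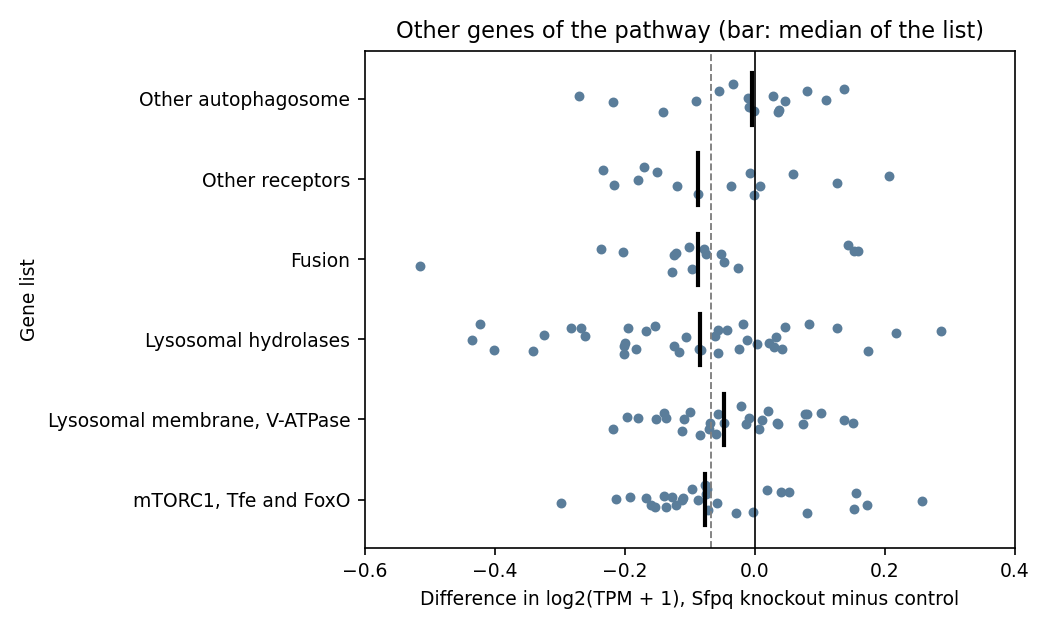
Difference in log2(TPM + 1), Sfpq knockout minus control, of 144 other genes in 6 lists, 1 point per gene with vertical scatter for legibility only, a black bar at each list's median, and a dashed line at the median of all tested genes (−0.07). List medians lie between −0.09 and −0.01, and 1 gene lies outside the axes.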

How the data were processed

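The authors deposited TPM values for 6 libraries, 1 value per RefSeq accession, which sum to 1000000 per library. Per the submitters' processing notes, STAR 2.4.1d and the mm10 genome were used. The sources used here do not name the counting tool, the annotation release or any use of strand. TPM keeps no read depth, so the depth is unknown and no counting interval is given. Groups were taken from the sample titles.

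Of 34671 accessions, 30824 got a symbol from RefSeq's GRCm38.p6 annotation (the assembly behind mm10) and 103 from GENCODE M21. The other 3744 held 1.19% to 1.27% of TPM. TPM was summed per symbol. Coordinates, counted from 1, and promoter sequences are RefSeq's for GRCm38.p6; overlapping genes and similar transcripts are from GENCODE M21.

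The test used limma 3.58.1 (R 4.3.3) on log2(TPM + 1) for genes reaching 1 TPM in 3 or more libraries, with intensity trend, no block, 2-sided, with Benjamini-Hochberg adjustment over all of them. Fold changes on this scale understate low genes. The fit was first tested on simulated data. Alternatives were pseudocounts of 0.1 and 5, no filter and a mean TPM of 5, median-of-ratios and quantile scaling, no trend, robust moderation, the replicate number as a block, leaving out each library, and span thresholds of 50 and 200 kb. Python 3.11.15 with pandas 2.3.3 was used for joining.

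The genes and lists were chosen with earlier results of these data known. The rule for values names all 42 matched genes: per-library TPM for those with an unadjusted p under 0.05 and the most abundant of each role, means for others, and from each further list the 3 smallest p. Genes given per library beyond it were picked after their values were seen. Some results are not reported here.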

Additional observations from a re-analysis of the deposited data

How the results depend on the processing

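None of the 42 genes passed an adjusted p of 0.05 in limma under any of 15 settings. Over all genes the adjusted calls were 0 except with a pseudocount of 5 (2 higher, 11 lower), a mean TPM of 5 or more (1 higher, 6 lower) and no trend (1 higher, 1 lower), and 0 with each library left out. At an unadjusted p under 0.05, 1 of the 42 was higher (2.38%) and 3 were lower (7.14%). After median-of-ratios scaling these counts became 4 (9.52%) and 1 (2.38%), against 6.32% and 5.28% of all genes. After quantile normalization they were 1 and 1 (2.38% each), against 5.56% and 5.45% of all genes. Without the trend they were 0 (0.0%) and 4 (9.52%), against 2.61% and 9.77% of all genes. With each library left out the counts among the 42 ran from 0 to 1 higher and from 2 to 9 lower. Of all genes, 1.69% to 5.0% were then higher and 5.3% to 10.3% lower. The cause of these changes in count was not tested. The median log2 difference, −0.10, was −0.015 after median-of-ratios scaling (all genes 0.01) and −0.14 to −0.06 with a library left out. That of the 6 genes of 100 kb or more stayed between −0.27 and −0.14, and was −0.20 at a threshold of 50 kb and −0.21 at 200 kb.

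A replicate block gave 0 higher of the 42 (0.0%, against 1.8% of all tested genes) and 3 lower (7.14% against 6.71%). The lower ones were Atg4d, Atg7 and Lamp2. Deviations of same-numbered knockout and control libraries correlated at −0.26, −0.25 and 0.05, and those of differently numbered libraries at −0.27 to 0.41. Deviations from a mean of 3 libraries sum to 0 within a group. These values therefore cannot decide whether the numbers pair the libraries.

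Median-of-ratios scaling raised each of the 42 by 0.072 to 0.083 and quantile normalization by 0.006 to 0.106, so genes just below 0 crossed it by construction. After median-of-ratios scaling the log2 difference of Atg14 was 0.026, while Atg9a was at 0.056, Atg4a at 0.016, Atg16l1 at 0.044, Map1lc3b at 0.017, Gabarap at 0.005 and Ctsd at 0.03, and after quantile normalization Atg14 was at 0.055, Atg9a at 0.007 and Atg16l1 at 0.011. With a library left out the log2 difference changed sign for Becn1 (−0.099 to 0.12), Atg14 (−0.12 to 0.033), Uvrag (−0.031 to 0.056), Atg2a (−0.036 to 0.10), Atg9a (−0.081 to 0.02), Atg4a (−0.20 to 0.098), Atg4b (−0.08 to 0.11), Atg16l1 (−0.084 to 0.019), Gabarapl1 (−0.20 to 0.051), Nbr1 (−0.06 to 0.11), Tfeb (−0.075 to 0.074), Ctsb (−0.27 to 0.05) and Ctsd (−0.17 to 0.059). The number of libraries and the unknown depth limit precision, and the smallest log2 difference with an unadjusted p under 0.05 in limma among the 42 was that of Atg12, 0.23.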

Other observations

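Bnip3 and Bnip3l are known targets of the hypoxia-inducible factors, and of 6 other such targets, picked after the values of Bnip3 were seen, all but Kdm3a had the same high and low libraries. Vegfa, the vascular growth factor, was at 49.7, 125 and 76.9 TPM in the knockout libraries and at 173, 60.0 and 162 TPM in the control libraries. Pdk1, a kinase that restrains pyruvate dehydrogenase, was at 26.4, 56.3 and 25.6 TPM in knockout and at 55.7, 25.2 and 54.8 TPM in control. In both, Sfpq knockout replicate 2 and control replicates 1 and 3 were the high libraries, as for Bnip3. Car9, a carbonic anhydrase, was at 4.31, 34.0 and 9.54 TPM in knockout and at 47.3, 12.2 and 62.3 TPM in control. Egln3, an oxygen-sensing prolyl hydroxylase, was at 179, 280 and 173 TPM in knockout and at 386, 222 and 402 TPM in control, and the glycolytic enzyme Pgk1 at 498, 775 and 569 TPM in knockout and at 1145, 627 and 1038 TPM in control. Kdm3a, a histone demethylase that is also a target, had another order, at 18.3, 17.6 and 22.0 TPM in knockout and at 18.7, 25.6 and 22.3 TPM in control. For all 6 the genotypes overlapped, and limma's adjusted p ran from 0.408 to 0.761. The share of all tested genes with the library order of Bnip3 was not counted. Whether hypoxia has a part in that order was not tested.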
